A study of Mus musculus with 6 samples.

Results

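The nuclear-encoded subunit genes of respiratory complexes II to V, together with the electron carrier cytochrome c, made up 45 of the 18543 genes in the deposited count table. Members were chosen by symbol, and no measured value entered the rule, though earlier results of these data were known. They were protein-coding genes whose symbols begin with Uqcr, with Cox4 to Cox8 or with Atp5, plus Sdha, Sdhb, Sdhc, Sdhd, Cyc1 and Cycs. Uqcrh-ps1 was the 1 gene that matched the symbols but was not protein coding, and it was left out. The 45 genes comprised 4 of complex II, 9 of complex III, cytochrome c, 15 of complex IV and 16 of complex V. All but Cox4i2 had enough counts to be tested, which left 44. Group 2 innate lymphoid cells (ILC2s), lymphocytes that release type 2 cytokines, were sorted from lung tissue of mice of the C57BL/6 strain at an age of 8 weeks. Mice were wild type or Atg5-/-, and those of both genotypes had received recombinant mouse IL-33 (0.5 µg) through the nose over 3 days, with cells taken on day 4 and 10 ng of RNA used per library. No unstimulated group is among these samples. There were 3 libraries a genotype, called here by their labels WT 1 to WT 3 and KO 1 to KO 3. Values given under WT or under KO are those of the libraries so labelled, in the order 1, 2, 3. The labels name no Cre driver, no deleted exon and no pooling of mice.

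Complex II, succinate dehydrogenase, passes electrons from succinate to ubiquinone. Complex III hands them from ubiquinol to cytochrome c, complex IV passes them from cytochrome c to oxygen, and complex V, the ATP synthase, uses the proton gradient that respiration builds to make ATP. Complex II and cytochrome c are encoded wholly in the nucleus, whereas complexes III, IV and V each combine nuclear subunits with subunits encoded by mitochondrial DNA. Autophagy of the kind that requires Atg5 is one of the routes by which cells remove mitochondria.

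Library totals ranged from 28827545 to 33662979 estimated counts, at which the floor of 3 counts is 0.0892 to 0.104 CPM (counts scaled to library size by TMM). Atg5, the targeted gene, was at 66.3, 71.7 and 21.8 CPM under the labels WT 1, WT 2 and WT 3. Under the labels KO 1, KO 2 and KO 3 it was at 23.0, 25.6 and 52.1 CPM. Its log2 difference (KO minus WT label) was -0.67 with all 6 libraries and did not pass (SE 0.50, adjusted p = 0.478, edgeR). Without WT 3, a library left out partly for its Atg5 level, it was -1.03 (SE 0.33, adjusted p = 0.0489, edgeR). The library labelled WT 3 was thus lowest of all in Atg5, and the one labelled KO 3 lay above the other KO labels, so every direction below is one between labels. Across 14052 genes the profile labelled WT 3 correlated at r = 0.991 with KO 1 and at r = 0.946 with WT 1 (across genes, which are not independent replicates). All 12 listed ILC2 markers had counts, with a summed level of 14242 to 15907 CPM under WT and 10205 to 14182 CPM under KO labels, most of it Il5. Of the 12, 0 passed with all 6 libraries (edgeR; 5 at an unadjusted p under 0.05, against 14.4% of all genes). Without the library labelled WT 3, 6 fell and 1 (Il13) rose, beside 16.1% and 17.7% of all genes. Those 6 (Gata3, Rora, Il1rl1, Klrg1, Thy1 and Nmur1) were each higher under WT 1 and WT 2 than in the other 4 libraries. T cell markers (8 of 9 with rows) summed to 165 to 243 CPM under WT and 182 to 198 CPM under KO, mostly constant-region genes of the receptor beta chain, with Cd8b1 at 0 in 4 of 6 libraries, and 2 of 7 tested fell without WT 3. Of markers of other cells, 3 of 6 endothelial and stromal genes had rows and summed to 8.57 to 93.6 CPM under WT and 91.9 to 131 CPM under KO, nearly all of it Pecam1. Without WT 3, Pecam1 rose by 3.55 on the log2 scale and the epithelial marker Epcam fell by 2.22 (adjusted p = 6.03e-05 and 0.000304, edgeR). Lung epithelial markers (4 of 7 with rows) summed to 15.0 to 58.3 and 9.53 to 29.2 CPM, mostly Epcam except under KO 2, where Scgb1a1 was at 15.0 CPM and Epcam at 13.6 CPM, with Krt8 at 0 in all 3 WT libraries. Of B cell markers, Ighm was at 7.82 to 17.1 CPM under WT and at 17.3, 13.3 and 194 CPM under KO, highest in the library labelled KO 3. NK cell and ILC1 markers (3 of 5 with rows) summed to 0.753 to 2.35 CPM under WT and 0.519 to 1.05 CPM under KO. Granulocyte and mast cell markers (5 of 10) summed to 4.51 to 12.9 and 0.542 to 4.26 CPM. Erythroid markers (4 of 4) summed to 5.83 to 10.9 and 7.75 to 8.45 CPM. Without WT 3, 1 of 3 tested granulocyte and mast cell markers and 1 of 5 tested macrophage and monocyte markers fell. The part of all these cells in the results below was not tested.

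Promoters of respiratory subunit genes are known for sites of the transcription factors NRF1 and NRF2 (an ETS-family factor), so these motifs were looked up for the members. The RefSeq promoter table (build GRCm38.p6) held 33 of the 45 genes. In the 250 bases before the annotated start, on either strand, the NRF1 core GCGCANGCG occurred in 9 of the 33 (27.3%) against 5.86% of 27025 genes. The ETS core CCGGAAG also occurred in 9 of 33 (27.3% against 7.83% of all genes), and CCAAT in 19 of 33 (57.6% against 37.5%). The cyclic AMP element TGACGTCA was in 2 (6.06% against 1.77%), the E-box CACGTG in 3 (9.09% against 6.86%) and the YY1 core AAGATGG in 1 (3.03% against 5.18%). Sequence from 5 members on which later results turn is shown as examples, 5′ to 3′ on the reverse strand, which carries all 5 genes. Capitals mark matches to these motifs in either orientation.
Sdhd, chr9:50603850-50603929, NRF1 core from -79 to -71 and an ETS core: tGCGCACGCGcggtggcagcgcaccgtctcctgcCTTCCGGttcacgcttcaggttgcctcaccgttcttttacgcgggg
Cycs, chr6:50566570-50566649, NRF1 core from -61 to -53 and a CCAAT box: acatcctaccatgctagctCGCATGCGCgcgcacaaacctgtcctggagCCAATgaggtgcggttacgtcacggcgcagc
Atp5g1, chr11:96075670-96075749, 3 CCAAT boxes, of which 2 overlap on opposite strands, and an E-box: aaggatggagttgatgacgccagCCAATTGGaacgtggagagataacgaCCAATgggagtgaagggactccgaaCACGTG
Atp5g2, chr15:102671070-102671099, NRF1 cores on both strands that overlap from -42 to -33: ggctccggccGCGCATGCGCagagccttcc
Atp5g3, chr2:73911327-73911406, a CCAAT box: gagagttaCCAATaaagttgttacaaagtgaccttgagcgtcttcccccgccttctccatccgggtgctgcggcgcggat
Positions count back from the RefSeq start. For Atp5g2 that start lies inside the gene's annotated span (102662864 to 102672352), so the bases shown are within the gene and not upstream of all of it. Over the full 250 bases, Atp5g1 and Atp5g3 held the same kinds of motif, CCAAT and the E-box, and Atp5g2 held the NRF1 core and none of the others.

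No respiratory subunit gene separated the labels by test when all 6 libraries were used. In that 6-library fit 0 of 44 members passed edgeR's quasi-likelihood test at an adjusted p under 0.05, as did 0% of all 14052 genes, with a smallest adjusted p among members of 0.342. At an unadjusted p under 0.05, 1 member passed (Atp5g2), against 14.4% of all genes. DESeq2 also passed 0 of the 43 members to which it gave an adjusted p, against 2.55% of 12647 genes, and at an unadjusted p under 0.05 it passed 2 members against 20.7% of those genes. Limma-voom passed 0 members, and 3 at an unadjusted p under 0.05 against 16.6% of 14052 genes. The fitted log2 difference (KO minus WT label) was positive in 40 members and negative in 4, with a median of 0.16 beside 0.02 for all genes tested. In bulk samples a change in RNA per cell and a change in the share of cells of a type cannot be told apart.

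With the library labelled WT 3 left out, 13 of the 44 members rose and 0 fell (edgeR quasi-likelihood, adjusted p under 0.05). This fit is given because that library goes against its label in Atg5 and in its profile, and as the profile itself marks it out, the calls are no independent evidence of a genotype difference. In this 5-library fit 17.7% of 14743 genes rose and 16.1% fell, and the median log2 difference was 0.25 for members beside 0.02 for all genes. The 13 were Cox6a2, Atp5g1, Uqcrq, Cyc1, Uqcrc2, Cycs, Atp5a1, Atp5g2, Atp5b, Uqcrfs1, Uqcrc1, Sdhd and Sdhc. In all 13 the library labelled WT 3 stood above both others labelled WT, and in 10 it lay within the range of the KO labels. Over the 44 members it lay within that range in 38, above it in 2 and below it in 4. The groups as labelled did not overlap in 2 members, Atp5g2 and Sdhc, both higher under KO, beside 9.26% of all genes separated in that direction and 9.22% in the other. The library labelled KO 3 was the lowest of the 3 KO labels in 37 of 44 members (84.1%), against 39.8% of all genes. Leaving out KO 3 as well, 29 members rose and 1 fell in a comparison of 2 libraries with 2, where 22.7% of 14315 genes rose and 22.7% fell.

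**Figure D1:**
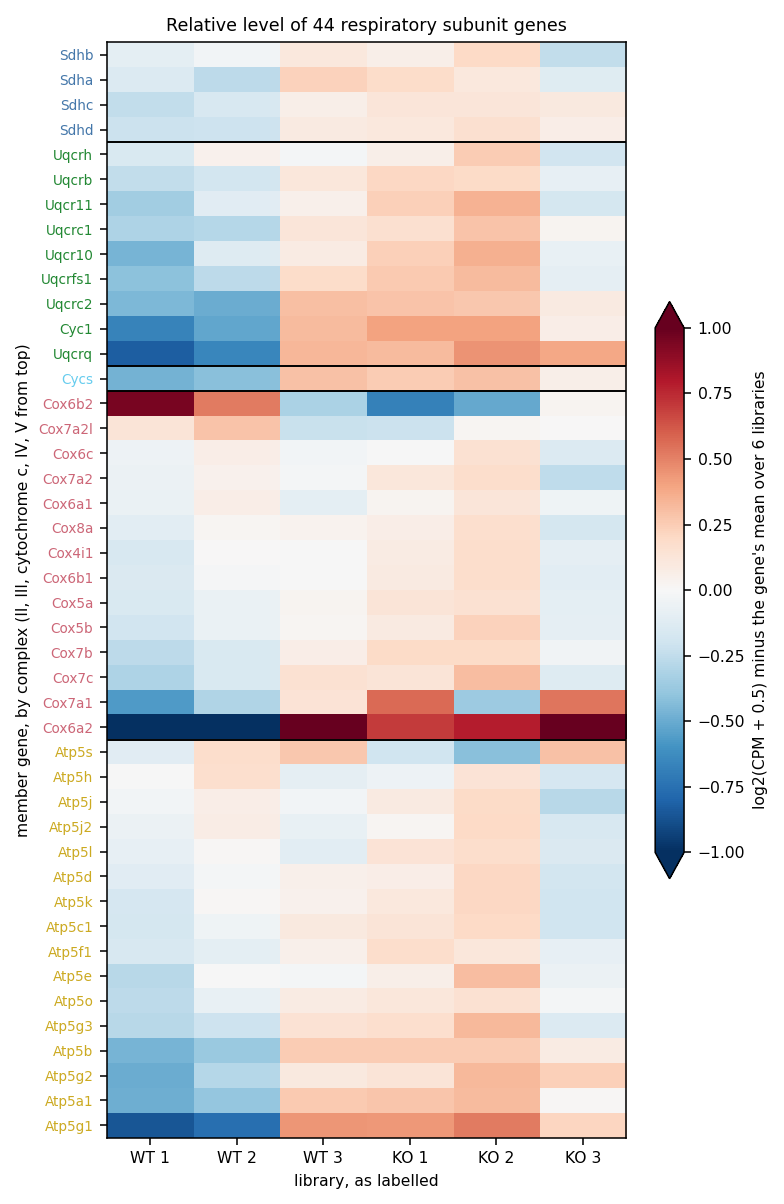
Level of each of the 44 tested members in each library, as log2(CPM + 0.5) minus the gene's mean over the 6 libraries (colour, limited to ±1), with genes grouped by complex. The columns labelled WT 1 and WT 2 are blue through most of complex III, cytochrome c and the lower rows of complex V, and the value labelled WT 3 lies within the KO range in 38 of the 44 rows.

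The heat map of members by library does not part cleanly into 2 sets of columns, and rows through most of complex IV are pale. Relative to each gene's mean, the median member lay at -0.20, -0.09 and 0.07 log2 units under WT 1, WT 2 and WT 3. Under KO 1, KO 2 and KO 3 it lay at 0.13, 0.20 and -0.08, so that KO 3 was near WT 2. The plot of log2 differences sets both fits side by side, with the library labelled WT 3 in on the left and out on the right.

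**Figure D2:**
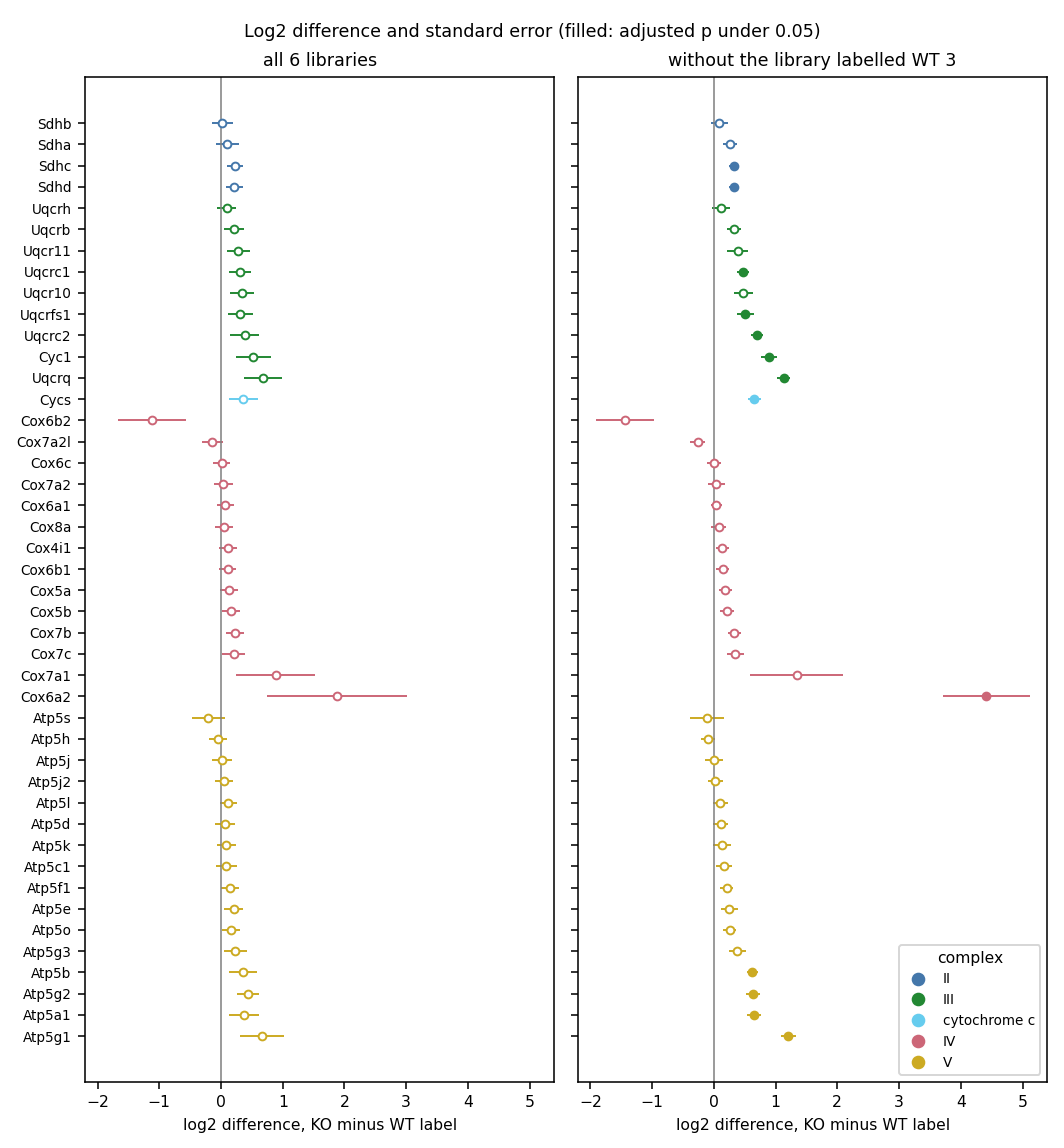
Log2 difference, KO minus WT label (points), with its standard error (bars) for 44 members in edgeR's fit to all 6 libraries (left) and without the library labelled WT 3 (right). No point is filled (adjusted p under 0.05) on the left and 13 are on the right, of which 6 belong to complex III and cytochrome c, 4 to complex V, 2 to complex II and 1 to complex IV. In the fit on the right 17.7% of all genes rose.

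In complex II, the membrane anchors Sdhc and Sdhd rose in the 5-library fit, where 17.7% of all genes rose. The flavoprotein Sdha and the iron-sulphur subunit Sdhb did not pass. Sdhc, on chromosome 1, was at 98.8, 105 and 123 CPM under WT 1, WT 2 and WT 3, then 128, 128 and 126 CPM under KO 1, KO 2 and KO 3. Its labels did not overlap, but the WT 3 value was nearer to the KO values than to the other WT values. Sdhd, whose promoter with its NRF1 core is shown above, was at 155, 155 and 190.4 CPM under WT and 192, 201 and 188 CPM under KO labels. Here the WT 3 value lay within the KO range. In the 5-library fit Sdhc (SE 0.09, adjusted p = 0.0256) and Sdhd (SE 0.08, adjusted p = 0.0214) both rose by a log2 difference of 0.33, with 6-library differences of 0.23 and 0.22 that did not pass (adjusted p = 0.389 and 0.421, edgeR). Sdhb, which carries iron-sulphur clusters, was at 328, 344 and 379 CPM under WT and 367, 404 and 297 CPM under KO labels. Its difference was 0.02 with all 6 libraries and 0.09 in the 5-library fit (adjusted p = 0.949 and 0.666). Sdha, which binds the flavin cofactor and oxidises succinate, was at 296, 273 and 383 CPM under WT and 371, 351 and 300.3 CPM under KO. Its highest value was thus in the library labelled WT 3, and the 5-library difference of 0.27 did not pass (adjusted p = 0.114).

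Complex III and cytochrome c held the highest count of members that rose in the 5-library fit, 6 of 10, beside 17.7% of all genes. The median log2 difference of the 10 was 0.50. Both catalytic subunits with nuclear genes were among the 6. Cyc1, the cytochrome c1 that passes electrons to cytochrome c, was at 142, 158 and 283 CPM under WT 1, WT 2 and WT 3 and 301, 299 and 237 CPM under KO 1, KO 2 and KO 3. Its group means were 194 ± 76.8 and 279 ± 36.3 CPM (SD, n = 3), and the WT 3 value lay within the range of the KO values. The difference was 0.52 with all 6 libraries (SE 0.28, adjusted p = 0.372, edgeR) and 0.90 without WT 3 (SE 0.13, adjusted p = 0.00212). Uqcrfs1, the Rieske iron-sulphur protein, was at 120.2, 134 and 182 CPM under WT and 192, 199 and 150.0 CPM under KO. The KO 3 value fell between those labelled WT 2 and WT 3, and the 5-library rise was 0.51 (SE 0.14, adjusted p = 0.0281).

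The core proteins Uqcrc1 and Uqcrc2, which are related to mitochondrial processing peptidases, rose as well. Uqcrc2 was at 141, 136 and 237 CPM under WT and 234, 232 and 205 CPM under KO labels, so that the WT 3 value was the highest of the 6. Its exons share 504 bases with Pdzd9 on the opposite strand. Uqcrc1 was at 351, 357 and 473 CPM under WT and 487, 529 and 445 CPM under KO. The 5-library rises were 0.70 for Uqcrc2 (SE 0.10, adjusted p = 0.00183) and 0.47 for Uqcrc1 (SE 0.10, adjusted p = 0.0106).

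Among the 5 small supernumerary subunits of complex III, Uqcrq alone passed in the 5-library fit, and it had the lowest adjusted p of all members there. Uqcrq, which sits beside cytochrome b, lies on chromosome 11 from 53427922 to 53430831 (mm10). It was at 108, 122 and 242 CPM under WT 1, WT 2 and WT 3, then 239, 262 and 252 CPM under KO 1, KO 2 and KO 3. Unlike most members it was no lower under KO 3 than under KO 1. The log2 difference was 0.67 with all 6 libraries (SE 0.31, adjusted p = 0.352) and 1.13 without WT 3 (SE 0.10, adjusted p = 0.000294, edgeR), a 2.19-fold rise. The other 4, Uqcrb, Uqcrh, Uqcr10 and Uqcr11, had 5-library differences of 0.33, 0.11, 0.48 and 0.39 and did not pass (adjusted p from 0.055 to 0.62). Cycs, the somatic cytochrome c that carries electrons to complex IV and also takes part in apoptosis, was at 283, 295 and 482 CPM under WT and 469.7, 482 and 411 CPM under KO. Its promoter, shown above, holds an NRF1 core, and its 5-library rise was 0.66 (SE 0.10, adjusted p = 0.00255) beside 0.36 with all 6 libraries (adjusted p = 0.424).

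Few complex IV genes passed. Of its 14 tested nuclear members, 1 rose in the 5-library fit, the muscle-type isoform Cox6a2, beside 17.7% of all genes. The median log2 difference of the 14 was 0.14. Cox4i1, a nuclear subunit that joins mt-Co1 early in assembly, was at 316, 355 and 352 CPM under WT and 374, 399 and 331 CPM under KO (341 ± 22.1 and 368 ± 34.0 CPM, SD, n = 3). Cox8a, one of the smallest subunits, was at 220.3, 240.3 and 243 CPM under WT and 249, 267 and 210.1 CPM under KO. In both genes the groups overlapped and the 5-library differences, 0.14 and 0.08, did not pass (adjusted p = 0.374 and 0.664). Cox5a, Cox5b, Cox6b1, Cox6c, Cox7a2, Cox7b and Cox7c had 5-library differences from 0.00 (Cox6c) to 0.35 (Cox7c), none of which passed, with Cox7b the nearest (0.33, adjusted p = 0.0504). Cox7b itself was at 122, 131 and 153 CPM under WT and 167, 166 and 142 CPM under KO. Cox7a2l, described as a factor that joins complexes III and IV into supercomplexes, had the opposite sign from most members. Whether it has that role in mice of this strain was not tested. It was at 79.9, 88.9 and 62.4 CPM under WT and 62.6, 74.1 and 73.3 CPM under KO, lowest in the library labelled WT 3, with a 5-library difference of -0.26 (SE 0.12, adjusted p = 0.127).

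Complex IV is also the complex whose subunits come in tissue isoforms, and there the libraries differed more. Cox6a2, the heart and skeletal muscle form of subunit 6a (chromosome 7, 128205435 to 128206387), had 18, 39 and 433 counts under WT 1, WT 2 and WT 3 and 330, 411 and 1131 counts under KO 1, KO 2 and KO 3. In CPM these were 0.590, 1.28 and 14.3 under WT and 11.4, 12.2 and 36.1 under KO, so that WT 1 and WT 2 were low, WT 3 lay within the KO range and KO 3 was the highest. The 6-library difference of 1.88 did not pass (SE 1.13, adjusted p = 0.397), while the 5-library rise was 4.42 (SE 0.70, adjusted p = 0.00302, edgeR), a 21.3-fold rise. DESeq2 gave this gene no p. Its counts were whole numbers in all 6 libraries, and its exons share 70 bases with Itgad on the opposite strand. Cox6a1, the form found in most tissues, was at 324, 354 and 316 CPM under WT and 345, 368 and 328 CPM under KO, a 5-library difference of 0.04 (adjusted p = 0.779). Per kb of exon, Cox6a2 was 0.188%, 0.371% and 4.48% of the sum of both forms under WT and 3.31%, 3.31% and 10.2% under KO. With the longest coding transcript as the length those shares were 0.153%, 0.302% and 3.68%, then 2.71%, 2.71% and 8.45%, in the same order of libraries.

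The remaining isoforms were scarce. Cox6b2, the testis form of subunit 6b, was at 3.18, 2.22 and 1.03 CPM under WT and 0.692, 0.832 and 1.43 CPM under KO. WT 3 again lay within the KO range, and the difference was -1.12 with all 6 libraries (SE 0.55, adjusted p = 0.357) and -1.44 without WT 3 (SE 0.47, adjusted p = 0.0521). In the comparison of 2 libraries with 2, Cox6b2 was the 1 member that fell, by 1.81 on the log2 scale (adjusted p = 0.0122). Cox6b1, the usual form, was at 197, 217 and 218 CPM under WT and 232, 246 and 203 CPM under KO. Cox7a1, the muscle form of subunit 7a, was at 0.295, 0.458 and 0.795 CPM under WT and 1.25, 0.416 and 1.21 CPM under KO, and passed in neither the 6-library nor the 5-library fit. The widespread form Cox7a2 was at 207, 223 and 213 CPM under WT and 234, 245 and 181 CPM under KO. Cox4i2, a form known from lung, had 2, 3 and 0 counts under WT and 0, 4 and 8 counts under KO (at most 0.255 CPM) and was not tested. It was at or under the floor of 3 counts in 4 libraries, against 316 to 399 CPM of Cox4i1.

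**Figure D3:**
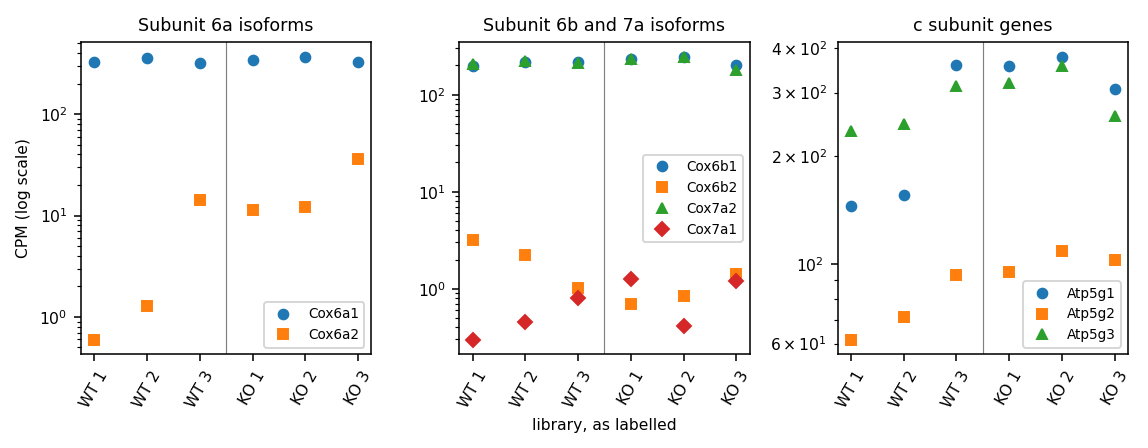
CPM on a log scale of isoform genes of subunits 6a, 6b and 7a of complex IV and of the c subunit of complex V in each library (1 point a gene and library; the vertical line parts the labels). Cox6a2 and Atp5g1 are lower under WT 1 and WT 2 than in the other 4 libraries, whereas Cox6a1 stays between 316 and 368 CPM.

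In complex V the F1 pair Atp5a1 and Atp5b and 2 of the 3 c ring genes rose in the 5-library fit. These were 4 of 16 members, beside 17.7% of all genes that rose. The complex median was 0.19, and no stalk or small membrane subunit passed. Atp5b, the beta subunit that holds the catalytic sites, was the most abundant member in CPM, at 1351, 1438 and 2219 CPM under WT 1, WT 2 and WT 3 and 2218, 2223 and 1973 CPM under KO 1, KO 2 and KO 3. Atp5a1, the alpha subunit that alternates with beta in the F1 head, was at 567, 609 and 956 CPM under WT and 968, 994 and 805 CPM under KO. Both genes showed WT 1 and WT 2 low, WT 3 at the level of KO 1 and KO 2, and KO 3 between. Atp5b rose by 0.62 (SE 0.09, adjusted p = 0.00216) and Atp5a1 by 0.66 (SE 0.11, adjusted p = 0.00449) in the 5-library fit, beside 0.36 and 0.38 with all 6 libraries (adjusted p = 0.42 and 0.414). The gamma, delta and epsilon subunits of the rotor, Atp5c1, Atp5d and Atp5e, had 5-library differences of 0.16, 0.11 and 0.25 that did not pass. Atp5c1 was at 324, 354 and 391 CPM under WT and 399, 419 and 318 CPM under KO, the lowest and the highest value both carrying the KO label.

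The c ring turns as protons pass, and 3 nuclear genes encode the same mature c subunit behind different import sequences. Over the last 225 bases of the coding sequence, the RNAs were 84.9% identical between Atp5g1 and Atp5g2, 80% between Atp5g1 and Atp5g3 and 78.7% between Atp5g2 and Atp5g3. The longest identical runs, taken over the aligned whole coding sequences, were 20, 11 and 8 bases in the same order of pairs. Atp5g1 (chromosome 11, 96068852 to 96075670) was at 145, 156 and 358 CPM under WT 1, WT 2 and WT 3 and 355, 378 and 306 CPM under KO 1, KO 2 and KO 3. Its group means, 219.7 ± 120.0 and 346 ± 36.6 CPM (SD, n = 3), differed by 0.66 on the log2 scale with all 6 libraries (SE 0.36, adjusted p = 0.374), and by 1.21 without WT 3 (SE 0.12, adjusted p = 0.00039, edgeR), a 2.31-fold rise. Atp5g2 was at 61.3, 71.0 and 93.1 CPM under WT and 94.7, 109 and 102 CPM under KO. It was the member with the lowest p in the 6-library fit (log2 difference 0.44, SE 0.18, unadjusted p = 0.043, adjusted p = 0.342) and rose by 0.63 in the 5-library fit (SE 0.11, adjusted p = 0.00534). Atp5g3 was at 234, 246 and 314 CPM under WT and 319, 355 and 258 CPM under KO, a 5-library difference of 0.38 that did not pass (SE 0.14, adjusted p = 0.0752). Per kb of exon, Atp5g1 supplied 17.1%, 17.0% and 26.8% of the summed c subunit RNA under WT and 26.3%, 25.2% and 25.8% under KO. With the longest coding transcript as the length these shares were 7.08%, 7.07% and 12.0%, then 11.7%, 11.2% and 11.6%, with the same 2 libraries low. Pseudogene rows with at least 90% identity to the coding sequence summed to 39.3% of the counts of Atp5g2 itself and 5.17% of those of Atp5g1, so reads could have been divided between them.

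No further gene of complex V passed in the 5-library fit. The 4 stalk genes (Atp5f1, Atp5h, Atp5j and Atp5o), which hold the head still, had 5-library differences from -0.10 (Atp5h) to 0.26 (Atp5o), and the 3 membrane genes (Atp5j2, Atp5k and Atp5l) from 0.03 to 0.13. None of the 7 passed. Atp5h was at 221, 249 and 208 CPM under WT and 214, 244 and 197 CPM under KO, and Atp5j at 216, 230.1 and 216 CPM and 234, 251 and 181 CPM. In both genes the labels overlapped. Atp5s, which encodes coupling factor B, was the scarcest tested gene of the complex, at 9.40, 11.6 and 12.4 CPM under WT and 8.83, 7.55 and 12.7 CPM under KO (5-library difference -0.11, SE 0.28, adjusted p = 0.797). The row of Atp5o merges 2 gene identifiers and shares exons with Donson, and pseudogene rows of Atp5l summed to 19.4% of its counts.

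Complex III with cytochrome c had the largest median of the 4 complexes in both fits. Median log2 differences with all 6 libraries were 0.16 for complex II, 0.33 for complex III with cytochrome c, 0.11 for complex IV and 0.13 for complex V. Leaving out 1 library at a time, they ranged from 0.08 (without WT 1) to 0.30 (without WT 3) for complex II, from 0.19 (without WT 1) to 0.50 (without WT 3) for complex III with cytochrome c, from 0.02 (without KO 2) to 0.19 (without KO 3) for complex IV and from 0.05 (without KO 2) to 0.22 (without KO 3) for complex V. Without WT 1 the medians of complexes IV and V were 0.04 and 0.06. In the 5-library fit they were 0.30, 0.50, 0.14 and 0.19. The members that rose there were 2 of 4, 6 of 10, 1 of 14 and 4 of 16, beside 17.7% of all genes. Relative to each gene's mean, the median complex III and cytochrome c gene lay at -0.43 and -0.27 log2 units under WT 1 and WT 2, at 0.15 under WT 3 and at 0.25, 0.30 and -0.02 under KO 1, KO 2 and KO 3. The same medians for complex IV spanned a narrower range, -0.15, 0.00 and 0.01 under WT and 0.09, 0.17 and -0.09 under KO. In complex IV the library labelled KO 3 was thus below those labelled WT 2 and WT 3. In the comparison of 2 libraries with 2, all 4 complex II genes and 9 of 10 of complex III with cytochrome c rose. So did 6 of 14 of complex IV and 10 of 16 of complex V, beside 22.7% of all genes. Members of a complex are not replicates, and the difference between complexes was not tested. By role, the 5-library fit called both catalytic and both core subunits of complex III but 1 of 5 supernumerary ones, 2 of 3 c ring genes, 2 of 5 F1 genes and 1 of 13 supernumerary subunits of complex IV. Across the 44 genes, coding length and the 5-library difference had a Pearson r of 0.02 and a Spearman rho of 0.14, given as a description. The NRF1 core was in the promoters of 3 of the 7 genes that rose and have a promoter entry (Atp5g2, Cycs and Sdhd) and of 6 of the 26 others. The match of Atp5g2 lies inside that gene's annotated span. Of the same 7 and 26 genes, the ETS core was in 1 and 8, CCAAT in 3 and 16 and the E-box in 1 and 2. The cyclic AMP element was in 2 and 0, and the YY1 core in 0 and 1. None of these splits was tested.

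Most mitochondrially encoded subunits of complexes III to V fell in the 5-library fit while nuclear partners rose or did not pass. Of the 6 genes, 0 passed with all 6 libraries (edgeR; 1 had an unadjusted p under 0.05, against 14.4% of all genes). In the 5-library fit 5 fell, beside 16.1% of all genes, mt-Co3 being the one that did not pass (-0.40, adjusted p = 0.233). Cytochrome b, mt-Cytb, the catalytic heme protein of complex III, was at 1051, 773 and 298 CPM under WT and 249, 312 and 395 CPM under KO, and fell by 1.51 (SE 0.20, adjusted p = 0.00155). The ATP synthase a subunit, mt-Atp6, which forms the proton path beside the c ring, was at 523, 437 and 244 CPM under WT and 206, 256 and 298 CPM under KO, and fell by 0.91 (SE 0.16, adjusted p = 0.00468). In both, WT 1 and WT 2 were high, and WT 3 lay within the KO range. Summed over complexes III to V, nuclear subunit RNA exceeded mitochondrial subunit RNA 1.65, 2.30 and 6.32 times under WT 1, WT 2 and WT 3 and 7.64, 5.78 and 3.87 times under KO 1, KO 2 and KO 3, in CPM not divided by length. For complex IV alone these ratios were 0.750, 1.05 and 2.34, then 2.87, 2.10 and 1.39. Together the 45 nuclear genes took 0.893%, 0.939% and 1.19% of all counts under WT and 1.22%, 1.27% and 1.04% under KO.

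**Figure D4:**
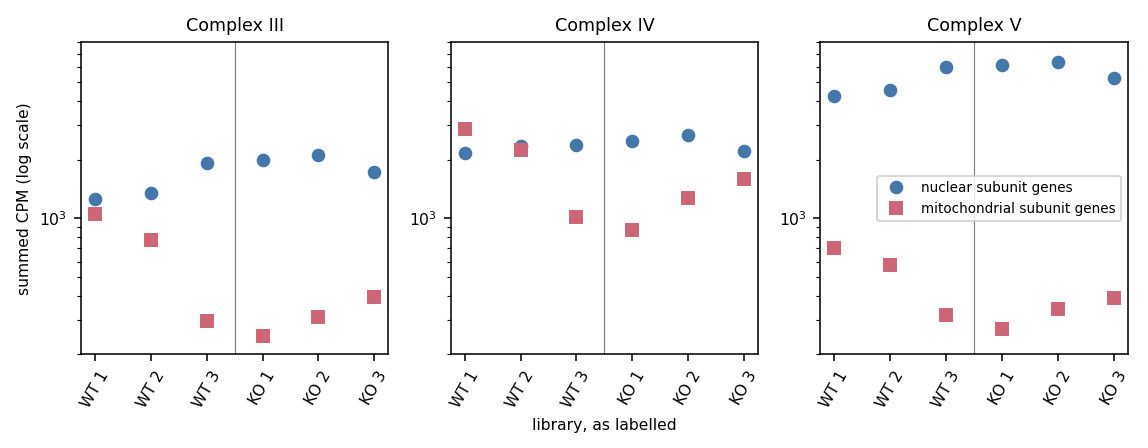
Summed CPM (log scale) of nuclear and of mitochondrially encoded subunit genes of complexes III, IV and V in each library. Mitochondrial sums are highest under WT 1 and WT 2 in all 3 complexes, and nuclear sums of complexes III and V are lowest there, while those of complex IV range from 2159 to 2669 CPM.

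Genes listed as assembly factors, many of which insert hemes, copper or subunits but stay out of the finished complexes, also rose in part. The complex IV list also held Lrpprc, Slirp and Taco1, which have other roles, and the counts below include them. Of 38 measured factors 0 passed with all 6 libraries (edgeR; 6 at an unadjusted p under 0.05, against 14.4% of all genes). In the 5-library fit 16 rose and 1 fell, beside 17.7% and 16.1% of all genes. For complex IV the count was 11 that rose and 1 that fell of 24. Cox16, which helps to build mt-Co2 into the complex, was at 30.1, 34.6 and 51.1 CPM under WT and 59.0, 66.2 and 66.1 CPM under KO, and rose by 0.99 (SE 0.12, adjusted p = 0.00116). Cox14, at 61.8, 64.1 and 77.4 CPM under WT and 86.8, 90.5 and 100.2 CPM under KO, rose by 0.56 (SE 0.10, adjusted p = 0.00616). In these genes the library labelled WT 3 lay between the other WT labels and the KO labels. Cox20 was the factor that fell, from 25.2 and 25.0 CPM under WT 1 and WT 2 to 14.6 to 17.5 CPM under KO, with 16.5 CPM under WT 3 (-0.62, SE 0.16, adjusted p = 0.0211). Cmc2 had the same sign and did not pass (-0.68, adjusted p = 0.0989). For complex II, Sdhaf1, which aids iron-sulphur insertion into Sdhb, rose by 1.11 (SE 0.13, adjusted p = 0.000936), whereas Sdhaf3 (1.02) and Sdhaf4 (-0.29) did not pass (adjusted p = 0.0602 and 0.318). Uqcc2 of complex III rose by 0.78 (adjusted p = 0.00595) and Uqcc3 did not pass (0.22, adjusted p = 0.269). The complex V factors Fmc1 and Tmem70 rose by 0.98 and 0.84 (adjusted p = 0.00261 and 0.00121).

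Subunits outside the symbol rule gave both signs. Ndufa4, now known as a subunit of complex IV, and 2010107E04Rik, a small ATP synthase protein, rose by 0.74 and 0.61 in the 5-library fit (adjusted p = 0.0128 and 0.00771). Usmg5, another ATP synthase protein, did not pass (0.30, adjusted p = 0.0907). Atpif1, which encodes the inhibitor that stops the ATP synthase from running backwards, was at 209.7, 208 and 120.2 CPM under WT and 126, 136 and 104 CPM under KO and fell by 0.77 (SE 0.12, adjusted p = 0.00331). WT 3 again lay within the KO range. Of 36 subunit genes of complex I, 19 rose and 1 fell in the 5-library fit, beside 17.7% and 16.1% of all genes. With all 6 libraries 0 passed (edgeR; 2 at an unadjusted p under 0.05, against 14.4% of all genes). Ndufs8, an iron-sulphur subunit, rose by 0.72 (adjusted p = 0.000873) and Ndufa7 by 0.50 (adjusted p = 0.00946), Ndufv3 fell by 0.63 (adjusted p = 0.00608), and Ndufa1 did not pass (-0.32, adjusted p = 0.0504).

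Of 11 measured regulators of respiratory genes, 5 rose and 1 fell in the 5-library fit, beside 17.7% and 16.1% of all genes. With all 6 libraries 0 passed (edgeR; 1 at an unadjusted p under 0.05, against 14.4% of all genes). Nrf1, whose motif is shown above, was between 67.9 and 75.4 CPM in every library, a 5-library difference of 0.02 (adjusted p = 0.904). Gabpa, the DNA-binding part of NRF2, rose by 0.37 (adjusted p = 0.0472), Tfam, which packages mitochondrial DNA, by 0.72 (adjusted p = 0.00918), and Pprc1, a coactivator, by 0.99 (adjusted p = 0.000565). Tfb2m, needed to start mitochondrial transcription, rose by 0.80 (adjusted p = 0.00336). Myc was at 133, 144 and 591 CPM under WT and 569, 588 and 803 CPM under KO, a rise of 2.24 (SE 0.17, adjusted p = 0.000189). Yy1 fell by 0.54 (adjusted p = 0.0385) and Esrra did not pass (-0.35, adjusted p = 0.133). Gabpa and the member Atp5j share 397 bases of exon on opposite strands.

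Levels can be set against each other per length. Divided by the union of exons, the mean over 6 libraries was highest for Cox6a1 (483 ± 28.8 CPM per kb, SD over libraries after removing label means) and Atp5b (449 ± 83.3), which did not differ beyond that spread, followed by Cox8a (385 ± 36.3), Cox6b1 (309 ± 24.7) and Atp5a1 (260.4 ± 53.5). Divided by the longest coding transcript, Atp5b led with 994 ± 184 CPM per kb, ahead of Cox6a1 (594 ± 35.4) and Cox4i1 (463 ± 37.5), so the order at the top depends on the length used. By exon length it also differed between libraries, since Atp5b was below Cox8a under WT 1 and WT 2 (319 and 339 against 356 and 388 CPM per kb) but above Cox6a1 under WT 3 and KO 1 (524 and 524 against 449.6 and 491). The lowest by exon length were Cox7a1 (1.38 ± 0.706 CPM per kb), Cox6b2 (1.41 ± 0.732) and Cox4i2 (0.114 ± 0.123), all isoforms of complex IV, and Cox6a2 stood at 18.6 ± 16.6. Pseudogenes with at least 90% identity over at least 80% of the coding sequence were found for 20 members (61 pseudogenes, of which 22 have rows). Those rows exceeded 5% of the member's own counts in 3 genes, the Atp5g1, Atp5g2 and Atp5l named above. Exons of 13 members overlap those of another gene, and without a stated use of strand in counting, reads there cannot be assigned to either.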

How the data were processed

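Messenger RNA was sequenced from ILC2s sorted from mouse lung, with 3 libraries of each genotype label. Per the submitters' processing notes, mm10, Partek, STAR and CASAVA 1.8.2 were used; roles and order are not stated there. The authors deposited estimated counts per gene, and a table of normalized signal. Compared value by value, the signal is the estimated count plus 1, scaled by a single library factor. The sources used here do not give the division of multi-mapping reads or the use of strand. Per library, 47.1% to 48.5% of estimated counts were whole (within 1e-06).

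Counts were rounded and fitted over all genes in R 4.3.3 with edgeR 4.0.16 (TMM, filterByExpr, robust quasi-likelihood test, knockout against wild-type label, no covariate) and adjusted by Benjamini-Hochberg, with a threshold of 0.05. The standard error is the log2 difference divided by the square root of F. Fold changes are model estimates and carry a standard error, and SDs are over 3 libraries. Every member is a row of that fit, and no p was adjusted over the members. The labels state triplicates, not separate mice, so p-values measure only how these samples spread, and that spread may be technical. Totals were 28827545 to 33662979 counts, and the floor of 3 counts covers counting error alone, as the labels name no molecular identifiers.

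Members and gene lists were chosen with earlier results of these data known. Values are given in every library for the 3 most abundant members of each complex, the 2 lowest in p for each sign, all isoform groups and members whose sign opposes their complex. Of each further list the 2 genes lowest in p for each sign are named. Uqcrc2, Uqcrfs1, the other listed genes past the threshold and the marker genes singled out (the ILC2 markers, Cd8b1, Pecam1, Epcam, Scgb1a1, Krt8 and Ighm) were named after their values were seen. A further listed marker gene, and the sum of its list, are not reported here. Alternatives were 3 other scalings, 2 other filters, DESeq2 1.42.0, limma-voom and limma-trend (limma 3.58.1, the latter on log2 of the deposited signal plus 1), dispersion without robust estimation, a replicate block, leaving out each library or both libraries numbered 3, and a threshold of 0.1. Exons, coding sequences and gene lengths are from GENCODE vM21, in which 41 of the 45 members have the coordinates of the deposited table. Pseudogenes were found with BLAST 2.17.0, and promoter letters are RefSeq's (GRCm38.p6). The scripts were tested on simulated data.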

Additional observations from a re-analysis of the deposited data

How the results depend on the processing

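Calls rest on which libraries enter. Leaving out 1 library at a time passed 0 to 4991 genes and 0 to 13 members, every one of them without the library labelled WT 3, and 0 without any of the other 5. The median log2 difference of the members then ranged from 0.07 to 0.25. Without both libraries numbered 3, 6505 genes and 30 members passed, with a median of 0.32. DESeq2 passed 323 genes and 0 members. The other scalings and filters, limma-voom, limma-trend, non-robust dispersion and a threshold of 0.1 left both counts at 0. Replicate numbers did not pair the samples (correlations of same-numbered deviations -0.04, 0.02 and -0.01), and the replicate block passed 0 genes and 0 members, with a member median of 0.16.

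Among named members, 427 recomputed log2 differences kept sign and side of the threshold, 33 newly passed (13 without WT 3, 20 without both numbered 3), and 30, none past the threshold, changed sign near 0. For Atp5j these were -0.0065 (DESeq2 and its size factors), -0.018 (upper quartile), -0.0011 (library totals), -0.027 (no filter), -0.028 (2 CPM filter), -0.0051 (limma-voom), -0.035 (normalized values) and -0.0047 (replicate block). For Sdhb they were -0.0026 (upper quartile), -0.012 (no filter), -0.013 (2 CPM filter) and -0.017 (normalized values), and for Cox7a2 -0.0040 (normalized values). With single libraries left out, Atp5j ranged from -0.12 to 0.14, Sdhb from -0.11 to 0.14, Cox7a2 from -0.075 to 0.17, Atp5c1 from -0.021 to 0.20, Atp5h from -0.17 to 0.025, Cox6a1 from -0.0072 to 0.12 and Cox8a from -0.059 to 0.14. The cause was not tested. With the longest coding transcript in place of the union of exons, 34 of 45 levels per length moved by more than 1 SD. At these depths Cox4i2 could not be tested, and Cox7a1, Cox6b2 and Cox6a2 under WT 1 and WT 2 carry a large counting error.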
